A study of Mus musculus with 6 samples.

Results

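The 10 genes described here (*Bax*, *Bbc3*, *Pmaip1*, *Fas*, *Tnfrsf10b*, *Eda2r*, *Perp*, *Aen*, *Pidd1* and *Ei24*) are transcriptional targets of p53 that act in cell death. They were picked by symbol from the 20856 genes with values in the deposited expression table, and all 10 were present once. The RNA came from 6 mouse cell lines derived from liver tumors on a C57BL/6 background. All tumors were started by hydrodynamic tail vein injection of a *Myc* transposon, which integrates and keeps *Myc* overexpressed, together with a pX330 plasmid that transiently expresses Cas9 and a guide RNA. The guide targeted *Trp53* in 3 lines (*Myc*; sg*Trp53*) and *Kmt2c*, the gene of the histone methyltransferase MLL3, in the other 3 (*Myc*; sg*Kmt2c*). The cells were passaged on collagen until no fibroblasts could be seen and were given no treatment. According to the study's methods the lines of a genotype came from different mice. The labels describe sg*Kmt2c* lines 2 and 3 as 2A and 2T1 and do not say how these are related. The p-values measure only the spread between the lines, part of which may be technical. The study used 2 *Kmt2c* guides, and the labels do not say which of them each sg*Kmt2c* line received. Every line received a guide against either *Trp53* or *Kmt2c*. A higher level in sg*Kmt2c* lines and a lower level in sg*Trp53* lines therefore cannot be told apart. In RNA from whole cultures, fewer cells that express a gene and less RNA per cell cannot be told apart either.

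p53 is a transcription factor that is stabilised by DNA damage and by oncogenes such as *Myc*. In death signalling its targets act at several points. BAX and the BH3-only proteins PUMA (*Bbc3*) and NOXA (*Pmaip1*) permeabilise mitochondria or relieve the block on that step, while receptors of the TNF receptor superfamily at the cell surface (*Fas*, *Tnfrsf10b*, *Eda2r*) signal from outside. Other targets encode the membrane protein PERP, the nuclease AEN, the caspase-2 scaffold PIDD1 and the endoplasmic reticulum protein EI24. Oncogenic *Myc* is known to provoke this kind of death in the liver, and loss of p53 is known to blunt it.

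p53 binds pairs of a half-site of 10 bases made of 3 purines, C, a pair of A or T, G and 3 pyrimidines. A set of windows from 250 bases before to 50 bases after annotated starts was searched for this half-site (RefSeq, GRCm38.p6). The set did not hold every gene. The motif reads the same on both strands. The set held windows for 7 of the 10 genes, 10 windows in all. The windows searched included none for *Perp*, *Tnfrsf10b* and *Pmaip1*, whether or not one was available, so no sequence of these 3 genes was searched. An exact half-site lay in 4 windows of 3 genes, *Bax*, *Aen* and *Ei24*, and the 2 overlapping *Aen* windows share the same site. Of the 32817 windows of this length in the set, 8.36% held one. None of the 10 windows held a pair of half-sites with a spacer of 0 to 13 bases and at most 1 mismatch in each. The mismatch could not fall on the C or the G of the half-site. Such a pair lay in 2.71% of the 32817 windows. A window with a half-site is shown for each of the 3 genes, with the half-site in capitals, beside that of *Eda2r*, the gene with the largest change, in which no half-site was found. The half-site begins 201 bases before the start in *Bax* (minus strand, chr7:45466849-45467148), 10 bases after it in *Aen* (plus strand, chr7:78895677-78895976, and 121 bases before the second annotated start, whose window is not shown) and 10 bases before it in *Ei24* (minus strand, chr9:36797285-36797584). The *Eda2r* window is chrX:97377160-97377459 on the minus strand. These are matches of letters, not measured binding, and sites outside the windows were not searched. Pairs with more mismatches were not counted. In the *Bbc3* window chr7:16309333-16309632, for example, ctgcaagccc is followed directly by cgacttgtcc. Both resemble the half-site, but ctgcaagccc has more than 1 mismatch. A window without a counted pair may therefore still hold a looser one.
Bax: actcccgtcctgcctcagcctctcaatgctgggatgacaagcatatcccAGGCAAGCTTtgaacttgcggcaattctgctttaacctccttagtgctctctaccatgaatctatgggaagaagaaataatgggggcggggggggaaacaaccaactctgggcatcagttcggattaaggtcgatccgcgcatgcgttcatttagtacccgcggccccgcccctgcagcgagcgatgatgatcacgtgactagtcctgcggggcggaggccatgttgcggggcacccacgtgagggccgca
Aen: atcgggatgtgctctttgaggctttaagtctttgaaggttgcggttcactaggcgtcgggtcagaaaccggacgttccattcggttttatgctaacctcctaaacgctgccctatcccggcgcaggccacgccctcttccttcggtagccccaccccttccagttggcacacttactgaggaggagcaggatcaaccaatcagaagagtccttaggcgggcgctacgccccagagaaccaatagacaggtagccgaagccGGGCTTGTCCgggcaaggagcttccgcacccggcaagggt
Ei24: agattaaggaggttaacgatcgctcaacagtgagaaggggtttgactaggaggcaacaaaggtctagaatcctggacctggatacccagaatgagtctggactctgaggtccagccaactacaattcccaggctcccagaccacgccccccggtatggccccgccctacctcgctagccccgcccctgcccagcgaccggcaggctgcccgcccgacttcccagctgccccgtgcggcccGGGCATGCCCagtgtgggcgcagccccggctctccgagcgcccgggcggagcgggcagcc
Eda2r: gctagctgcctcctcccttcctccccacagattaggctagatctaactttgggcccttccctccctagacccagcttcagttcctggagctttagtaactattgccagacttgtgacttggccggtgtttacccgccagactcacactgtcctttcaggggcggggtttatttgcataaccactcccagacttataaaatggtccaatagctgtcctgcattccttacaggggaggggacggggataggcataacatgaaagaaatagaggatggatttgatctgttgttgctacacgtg

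Levels are given as RPKM, which scale reads by transcript length and by the reads on genes of the library, so a gene can be compared between lines and, as far as the length fits, with other genes. The deposited transcript lengths of the 10 genes are 869 (*Bax*) to 4752 bases (*Eda2r*). The libraries held 3680068 to 6878625 reads on genes, and each sg*Kmt2c* library was shallower than every sg*Trp53* library. *Trp53* itself measured 17.2, 17.6 and 19.4 RPKM with sg*Trp53* and 92.2, 124 and 121 RPKM with sg*Kmt2c* (lines 1 to 3, the order used throughout), on the side of the label in each. *Kmt2c* transcript overlapped between the genotypes (20.59 ± 3.17 against 18.1 ± 7.86 RPKM, SD, n = 3 lines each). From DNA, the study reported insertions and deletions at *Kmt2c* in sg*Kmt2c* tumor cells. It described 1 of the sequenced cases as heterozygous, so loss of both copies in every line cannot be assumed. The hepatocyte gene *Alb* was low throughout, at 0.644 to 4.36 RPKM. Summed over 8 hepatocyte markers, the lines ranged from 16.7 to 67.3 RPKM with sg*Trp53* and from 2.33 to 5614 RPKM with sg*Kmt2c*, and over 7 epithelial and biliary markers from 68.5 to 1022 and from 245 to 6808 RPKM. The sums of 5614 and 6808 RPKM both belong to sg*Kmt2c* line 1. All tested members of these lists (4 and 7) overlapped between the genotypes and all had positive log2 fold changes (sg*Kmt2c* minus sg*Trp53*), with medians of 1.47 and 1.42, and none had an unadjusted p-value under 0.05 (limma). The 6 tested fibroblast and mesenchymal genes of 8 overlapped as well, and 5 of them had negative log2 fold changes, with a median of -1.50 and no unadjusted p-value under 0.05. The collagen gene *Col1a2*, for example, lay at 64.0 ± 56.5 RPKM with sg*Trp53* and 4.45 ± 4.47 RPKM with sg*Kmt2c* (SD, n = 3 lines each). The sums of this list, 2766 to 4305 and 2237 to 4962 RPKM, were mostly *Vim*, whose deposited length is only 574 bases. Without sg*Kmt2c* line 1, 8 of the 10 p53 targets had an unadjusted p-value under 0.05 (limma). In that fit 3.94% of all tested genes had one with sg*Kmt2c* higher. The part of the marker differences in the results was not tested. The sum of 6 immune markers was 20.03 to 49.8 RPKM with sg*Trp53* and 5.35 to 14.2 RPKM with sg*Kmt2c*. It moved with the genotype through the macrophage gene *Lyz2*, while *Cd3e* and *Cd79a* had no read in any line and its part in the results was not tested. None of 5 endothelial markers was high enough to test, with sums of 0.360 to 1.27 RPKM.

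All 8 of *Eda2r*, *Perp*, *Bax*, *Aen*, *Tnfrsf10b*, *Pidd1*, *Bbc3* and *Ei24* lay higher in every sg*Kmt2c* line than in any sg*Trp53* line, whereas *Fas* and *Pmaip1* overlapped. Among the 11617 genes high enough to test, such a complete separation with sg*Kmt2c* on top was found in 5.72%. The same 8 genes had an unadjusted p-value under 0.05 (limma on log2(RPKM + 1)), which 3.25% of tested genes had in this direction. Only *Eda2r* passed an adjusted p-value under 0.05 over all genes, as did 0.0516% of them in this direction and 0.129% in either. All 10 genes passed the filter on low values (RPKM 1 or more in 3 or more libraries). *Eda2r* did so through the sg*Kmt2c* lines, as it lay below RPKM 1 in sg*Trp53* lines 2 and 3. Without the filter its adjusted p-value was 0.108 (limma). The median log2 fold change of the 10 genes (sg*Kmt2c* minus sg*Trp53*) was 1.33, and that of all tested genes was -0.09. For a single gene, exact permutation of 3 lines against 3 gave a two-sided p = 0.1 for each of the 8 separated genes, the smallest value possible here.

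**Figure D1:**
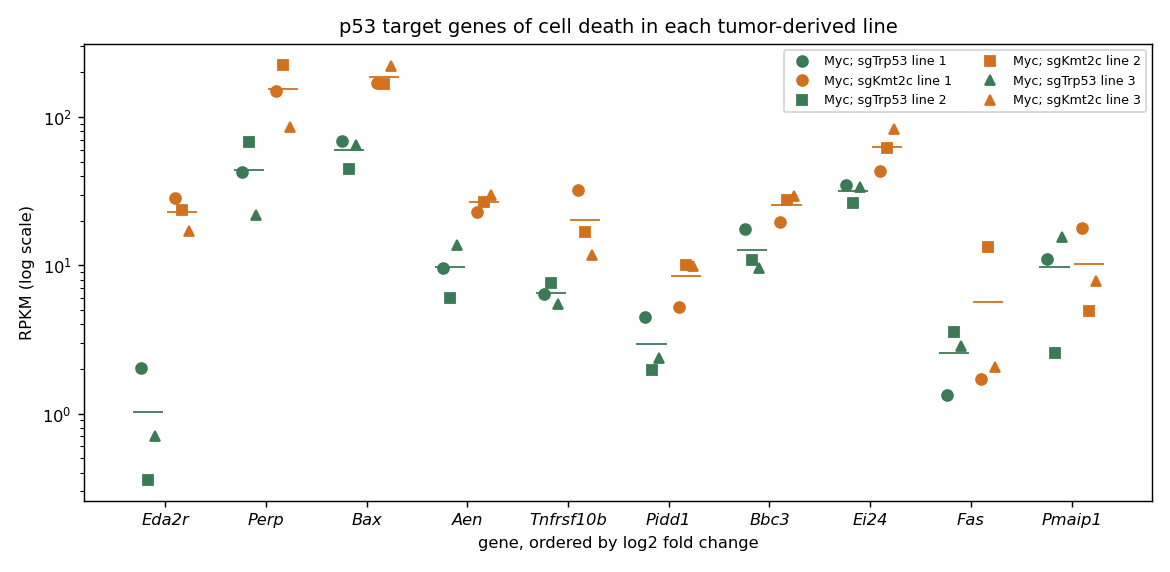
RPKM (log axis) of each gene in each line, with sgTrp53 lines in green, sgKmt2c lines in orange, a symbol per line number and a short bar at the mean of 3 lines. The orange points lie above all green points for 8 genes, with the widest gap for Eda2r, and mix with them for Fas and Pmaip1.

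Of the BCL2 family members, *Bax*, whose protein forms pores in the outer mitochondrial membrane, had the highest mean of the 10 genes in both genotypes. It measured 68.9, 44.6 and 65.1 RPKM with sg*Trp53* and 170.5, 167 and 222 RPKM with sg*Kmt2c* (chromosome 7 of GRCm38, from 45461695 to 45466898). The lowest sg*Kmt2c* line was 2.43 times the highest sg*Trp53* line, so the separation was wide against a spread of 59.5 ± 13.1 and 186 ± 30.4 RPKM (SD, n = 3 lines each). On the log2 scale the genotypes differed by 1.64 ± 0.235 (SE, 95% confidence interval 1.08 to 2.21), and limma's adjusted p-value of 0.0953 did not pass. It ranked 33 of all tested genes by p-value.

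*Bbc3*, which encodes PUMA, a BH3-only protein that binds and neutralises the survival members of the family, was separated by a narrow margin. It measured 17.5, 10.9 and 9.60 RPKM with sg*Trp53* and 19.5, 27.5 and 29.3 RPKM with sg*Kmt2c* (chromosome 7, from 16309616 to 16318205). sg*Kmt2c* line 1 was 1.11 times sg*Trp53* line 1, the nearest pair. By limma the log2 difference was 0.98 ± 0.292 (SE) with adjusted p = 0.450.

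*Pmaip1*, which encodes NOXA, a BH3-only protein that binds MCL1, showed no such order. It measured 11.03, 2.56 and 15.5 RPKM with sg*Trp53* and 17.8, 4.92 and 7.78 RPKM with sg*Kmt2c* (chromosome 18, from 66458604 to 66465550). The highest line was 6.07 times the lowest within sg*Trp53* and 3.62 times within sg*Kmt2c*, so the spread inside a genotype exceeded the difference between the means, 9.70 ± 6.58 and 10.2 ± 6.77 RPKM (SD, n = 3 each). Its log2 fold change was 0.16 with a 95% confidence interval of -1.46 to 1.77 (limma adjusted p = 0.948, exact permutation p = 0.9), which leaves room for a change of the size seen in *Bax* in the upward direction. Without sg*Trp53* line 2 it was -0.51 and without sg*Kmt2c* line 1 it was -0.31.

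Among the receptors, *Eda2r* changed most. It encodes XEDAR, a receptor for the ectodysplasin isoform EDA-A2, and lies on chromosome X from 97333840 to 97377216. With sg*Trp53* it measured 2.04, 0.356 and 0.702 RPKM (59, 9 and 23 reads). With sg*Kmt2c* it measured 28.2, 23.7 and 17.1 RPKM (632, 416 and 348 reads). The lowest sg*Kmt2c* line was 8.42 times the highest sg*Trp53* line, and the means of 1.03 ± 0.887 and 23.03 ± 5.58 RPKM (SD, n = 3 lines each) differed 22.3-fold. By its mean it was thus the lowest of the 10 genes with sg*Trp53*, although *Fas* was lower in line 1, and it ranked 6 with sg*Kmt2c*. The resulting log2 fold change of 3.62 ± 0.375 (SE, 95% confidence interval 2.73 to 4.52, limma adjusted p = 0.0359) was the fifth highest of all tested genes. The study singled out *Eda2r* on these same lines, so the call is not independent of that choice. The adjusted p-value was 0.0818 to 0.200 with any single line left out and 0.028 to 0.200 over all alternatives (limma), while the log2 fold change kept between 3.37 and 4.76.

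*Tnfrsf10b* encodes the mouse death receptor for TRAIL. It measured 6.41, 7.65 and 5.45 RPKM with sg*Trp53* and 32.3, 16.8 and 11.8 RPKM with sg*Kmt2c* (chromosome 14, from 69767472 to 69784403). The sg*Trp53* lines were close together, with a coefficient of variation of 17.0%, and the sg*Kmt2c* lines were not, at 52.7%, with line 1 on top. Its log2 difference from limma was 1.40 ± 0.378 (SE) with adjusted p = 0.407.

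*Fas*, which encodes the receptor for FAS ligand, overlapped between the genotypes and was low in both. It measured 1.32, 3.54 and 2.83 RPKM with sg*Trp53* (12, 28 and 29 reads) and 1.71, 13.3 and 2.05 RPKM with sg*Kmt2c* (12, 73 and 13 reads) (chromosome 19, from 34290659 to 34327770). Its higher sg*Kmt2c* mean, 5.70 ± 6.61 against 2.57 ± 1.13 RPKM (SD, n = 3 each), rests on sg*Kmt2c* line 2. On the log2 scale the genotypes differed by 0.52, with a 95% confidence interval of -1.11 to 2.14 (limma adjusted p = 0.815, exact permutation p = 0.8), and by -0.26 without that line.

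**Figure D2:**
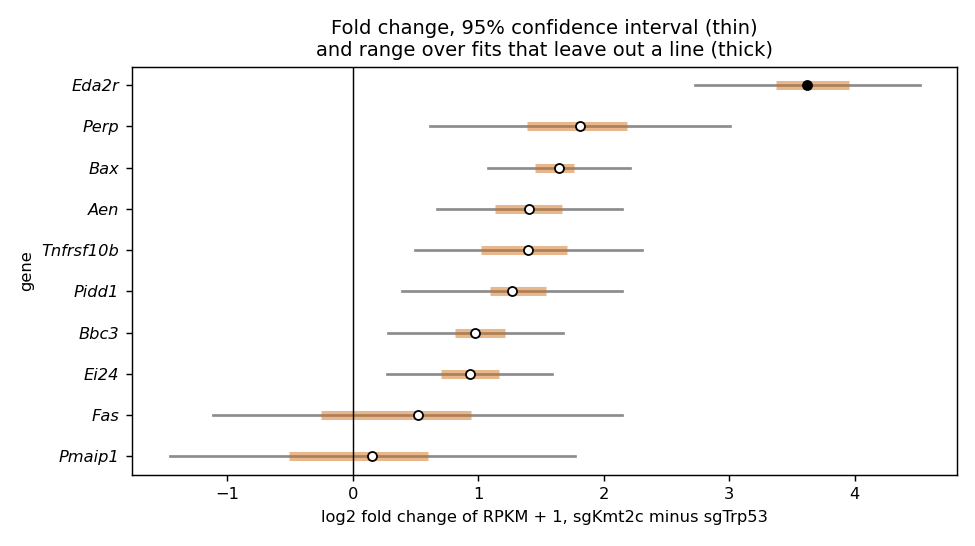
Log2 fold change of RPKM + 1 (sgKmt2c minus sgTrp53) of the 10 genes from limma, as points (filled where the adjusted p-value is under 0.05) with the 95% confidence interval as thin lines and the range over the 6 fits that each leave out a line as thick bars. The intervals of 8 genes lie above 0, those of Fas and Pmaip1 span it, and only Eda2r is filled.

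The remaining 4 genes all separated the genotypes. *Perp*, which encodes a tetraspan membrane protein of p53-dependent apoptosis and of desmosomes, measured 42.9, 67.8 and 21.8 RPKM with sg*Trp53* and 151, 225 and 85.6 RPKM with sg*Kmt2c* (chromosome 10, from 18845071 to 18857073). In both genotypes line 2 was highest and line 3 lowest, and the lines of a genotype spanned 3.12-fold and 2.63-fold. By limma the log2 difference was 1.81 ± 0.499 (SE) with adjusted p = 0.422. In each genotype the line with the highest *Perp* had the lowest sum of the epithelial and biliary markers, 245 RPKM in sg*Kmt2c* line 2 and 68.5 RPKM in sg*Trp53* line 2. The other lines did not continue this inverse order. The highest sums, 6808 and 1022 RPKM, lay in line 1 of each genotype, where *Perp* was in the middle. This was seen after the fact and was not tested.

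*Aen*, which encodes an exonuclease that enhances apoptosis, measured 9.54, 6.05 and 13.8 RPKM with sg*Trp53* and 23.01, 26.7 and 29.9 RPKM with sg*Kmt2c* (chromosome 7, from 78895854 to 78911209). The sg*Kmt2c* lines had the lowest coefficient of variation of the 10 genes. By limma the log2 difference was 1.41 ± 0.309 (SE) with adjusted p = 0.316. *Pidd1*, the death domain scaffold on which caspase-2 is activated, measured 4.47, 1.96 and 2.36 RPKM with sg*Trp53* and 5.27, 10.1 and 9.97 RPKM with sg*Kmt2c* (chromosome 7, from 141438113 to 141444025). Its separation was narrow, because sg*Kmt2c* line 1 was 1.18 times sg*Trp53* line 1, and its log2 difference from limma was 1.27 ± 0.367 (SE) with adjusted p = 0.432.

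*Ei24*, an endoplasmic reticulum protein named for its induction by the DNA-damaging drug etoposide, had the smallest fold change of the 8 separated genes. It measured 34.6, 26.3 and 33.8 RPKM with sg*Trp53* and 43.4, 61.8 and 83.1 RPKM with sg*Kmt2c* (chromosome 9, from 36779159 to 36797361), and by limma the log2 difference was 0.93 ± 0.276 (SE) with adjusted p = 0.450. The noncoding gene *Gm26787* overlaps *Ei24* over 3518 bases in RefSeq, so reads of the pair may not be told apart, and a pseudogene overlaps *Eda2r* over 674 bases.

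Across the 10 genes no single line stood for its genotype. Within sg*Kmt2c*, line 1 was highest for *Pmaip1*, *Tnfrsf10b* and *Eda2r* and lowest for 5 genes. Line 2 was highest for *Fas*, *Perp* and *Pidd1*, and line 3 for *Bax*, *Bbc3*, *Aen* and *Ei24*. Within sg*Trp53*, line 1 was highest for 5 genes and line 2 lowest for 6. Summed over the 10 genes, the level was 171 to 199 RPKM in the sg*Trp53* lines and 493 to 577 RPKM in the sg*Kmt2c* lines. *Bax* and *Perp* made up 50.8% to 68.0% of these sums. By mean level the order in the sg*Trp53* lines was *Bax*, *Perp*, *Ei24*, *Bbc3*, *Aen*, *Pmaip1*, *Tnfrsf10b*, *Pidd1*, *Fas* and *Eda2r*. Neighbours in it overlapped except *Ei24* above *Bbc3* and *Tnfrsf10b* above *Pidd1*. In the sg*Kmt2c* lines the order was *Bax*, *Perp*, *Ei24*, *Aen*, *Bbc3*, *Eda2r*, *Tnfrsf10b*, *Pmaip1*, *Pidd1* and *Fas*, and only *Perp* above *Ei24* and *Ei24* above *Aen* did not overlap.

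The partners of these proteins in the death pathways lay on both sides. Of a list of 41 ligands, adaptors, caspases, BCL2 family members and their inhibitors, 39 were in the table and 32 could be tested. None passed an adjusted p-value under 0.05 (limma), and 2 had an unadjusted p-value under 0.05, against 8.58% of tested genes in either direction. Their median log2 fold change was 0.03. The lines separated with sg*Kmt2c* on top in 3 (*Tnfrsf1a*, *Tradd* and *Xiap*) and below in 4 (*Bcl2l11*, *Mcl1*, *Diablo* and *Casp9*), against 5.72% and 10.4% of tested genes.

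At the surface, the ligands of the 3 receptors had few reads. *Fasl* had 1 read over the 6 lines, *Tnfsf10*, the gene of TRAIL, 0 to 2 reads per line, and *Eda* 0 to 22. *Tnfrsf1a*, the main TNF receptor and not itself counted here as a p53 target, measured 219.7, 274 and 191 RPKM with sg*Trp53* and 406, 384 and 299 RPKM with sg*Kmt2c*, or 0.67 on the log2 scale (limma, adjusted p = 0.493). Its deposited length is only 250 bases, so these levels are high for its 335 reads in sg*Trp53* line 1 and are not comparable with those of other genes. *Casp8*, the initiator caspase of the receptors, overlapped at 12.3 ± 4.69 and 18.3 ± 11.6 RPKM (SD, n = 3 each).

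At the mitochondria, *Bak1*, the other pore-forming member, measured 29.7, 38.1 and 37.9 RPKM with sg*Trp53* and 30.0, 28.2 and 42.9 RPKM with sg*Kmt2c*, or -0.08 on the log2 scale (limma, 95% confidence interval -0.63 to 0.48, adjusted p = 0.926). The ratio of *Bax* to *Bak1* in RPKM was 2.32, 1.17 and 1.72 with sg*Trp53* and 5.69, 5.94 and 5.16 with sg*Kmt2c*, with no overlap. The BH3-only gene *Bcl2l11* (BIM) measured 11.9, 14.3 and 12.6 RPKM with sg*Trp53* and 2.28, 7.22 and 7.11 RPKM with sg*Kmt2c*, or -1.20 on the log2 scale (limma, adjusted p = 0.496). The lines thus separated in the direction opposite to *Bbc3*. *Hrk*, another BH3-only gene, had the most negative log2 fold change of the list, -2.63 (limma, 95% confidence interval -5.45 to 0.19, adjusted p = 0.597). It overlapped, at 14.5 to 83.8 RPKM with sg*Trp53* and 0 to 21.7 RPKM with sg*Kmt2c*. Of the survival genes, *Bcl2l1* (BCL-XL) measured 25.9, 14.2 and 34.8 RPKM with sg*Trp53* and 99.3, 38.8 and 29.0 RPKM with sg*Kmt2c*, with sg*Kmt2c* line 1 on top and the others within or near the sg*Trp53* range. The ratio of *Bax* to *Bcl2l1* therefore overlapped, at 1.87 to 3.15 in the sg*Trp53* lines and 1.72 to 7.63 in the sg*Kmt2c* lines. With sg*Trp53* and sg*Kmt2c*, *Mcl1* lay at 338 ± 27.7 and 268 ± 42.3 RPKM, *Bcl2* at 3.43 ± 1.97 and 2.74 ± 0.289 RPKM, and the apoptosome gene *Apaf1* at 7.77 ± 0.499 and 8.72 ± 2.27 RPKM (SD, n = 3 each).

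**Figure D3:**
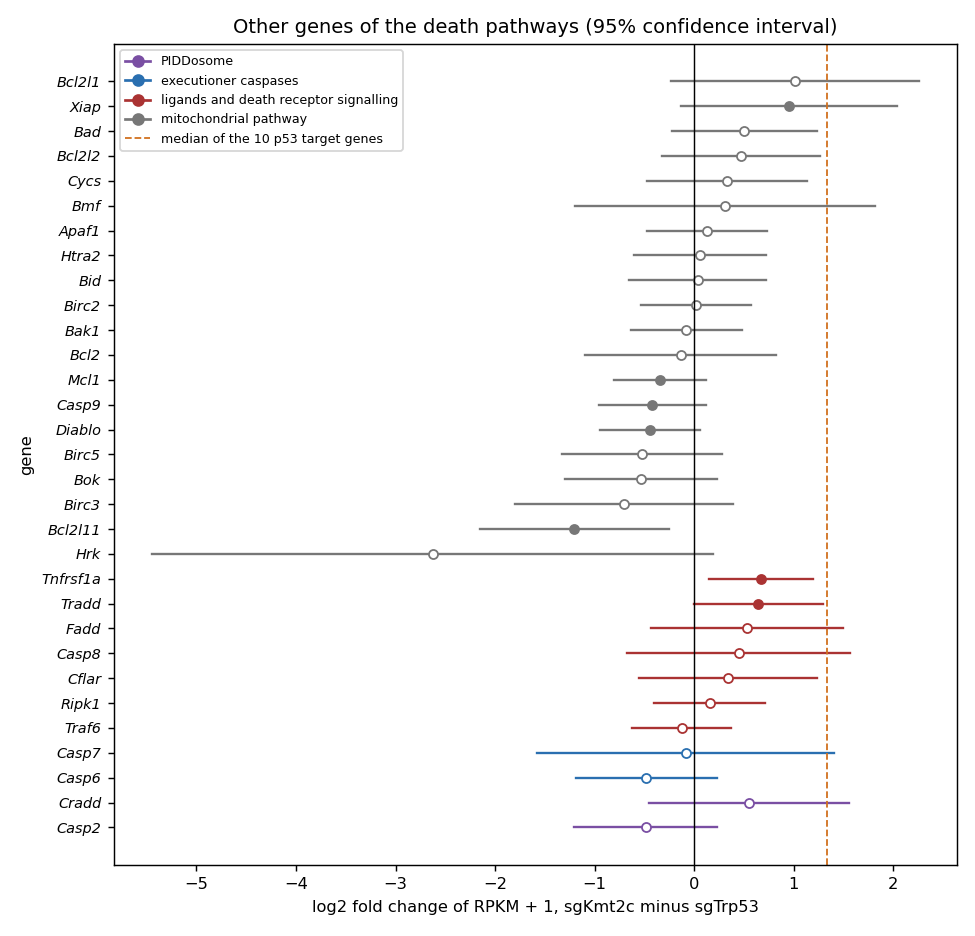
Log2 fold change of RPKM + 1 (sgKmt2c minus sgTrp53) with its 95% confidence interval for 31 of the 32 tested partner genes, coloured by pathway step and filled where the 3 lines of each genotype do not overlap. The points scatter on both sides of 0, and none reaches the dashed line at 1.33, the median of the 10 p53 target genes.

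Other p53 genes, of feedback, cell cycle arrest and repair, were read for comparison. Of 25 listed, *Trp53* itself included, 24 were tested. Of these, 15 lay higher in every sg*Kmt2c* line and none lay lower in every one, against 5.72% and 10.4% of all tested genes. The adjusted threshold was passed upward by 3, against 0.0516% of all tested genes. *Trp53*, the gene targeted in the sg*Trp53* lines, is among both the 15 and the 3. The median log2 fold change was 1.10. *Cdkn1a*, the cell cycle inhibitor p21, lay at 20.3 ± 14.5 RPKM with sg*Trp53* and 258 ± 39.2 RPKM with sg*Kmt2c* (SD, n = 3 each), or 3.84 on the log2 scale (limma, adjusted p = 0.0680). The difference between that list and the cell death targets was not tested. The 5 tested genes whose pattern over the 6 libraries was most like the mean of the 10 standardised profiles were *Clcn4-2* (Pearson correlation 0.996), *Adgrl3* (0.989), *Serpinb8* (0.989), *Chmp2a* (0.983) and *Stard5* (0.979). These correlations run over 6 points that fall by genotype and share their libraries, and none of the 5 passed the adjusted threshold.

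*Bax*, *Bbc3*, *Aen* and *Pidd1* share chromosome 7, as do *Clcn4-2*, *Chmp2a* and *Stard5*, so the other genes of each chromosome were read after these values had been seen. On chromosome 7, 14.6% of the 817 other tested genes lay higher in every sg*Kmt2c* line, the highest share of the 20 chromosomes, and their median log2 fold change was 0.15. The fold changes of its 4 p53 targets exceeded that median by 0.83 (*Bbc3*) to 1.49 (*Bax*). Chromosome X ranked next, with 11.3% and a median of 0.18, and *Eda2r* exceeded it by 3.44. Within 5 Mb on either side, none of 83 tested neighbours of *Bax*, 36 of *Eda2r*, 26 of *Perp* and 55 of *Aen* had a higher log2 fold change than the gene itself, and 2 of 73 did for *Bbc3*, 2 of 72 for *Pidd1*, 1 of 48 for *Tnfrsf10b* and 1 of 29 for *Ei24*. For *Fas* it was 7 of 50 and for *Pmaip1* 7 of 43. The part of the chromosome-wide shifts in these values was not tested.

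**Figure D4:**
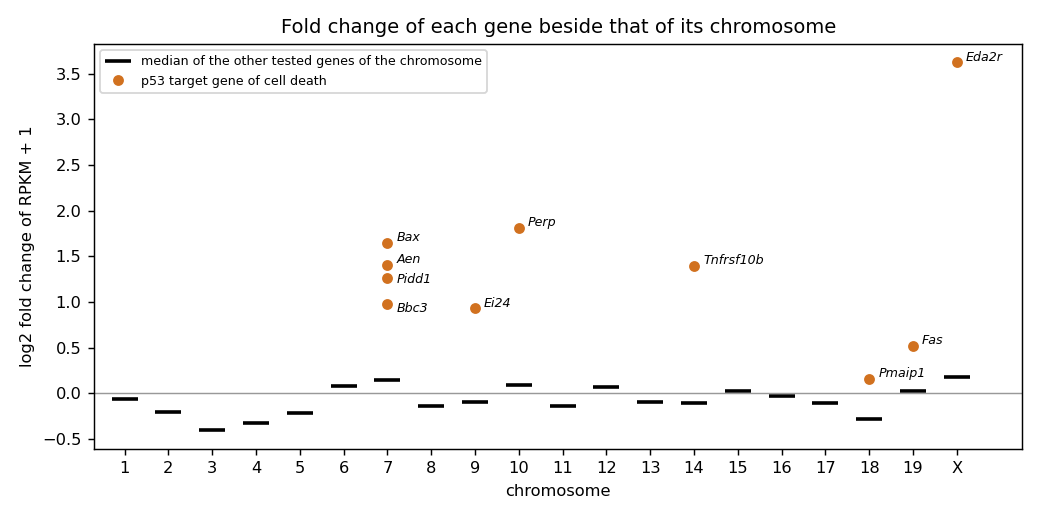
Log2 fold change of RPKM + 1 (sgKmt2c minus sgTrp53) of the 10 genes (orange points) at their chromosomes, beside the median of the other tested genes of each chromosome (black bars). The bars lie between -0.40 and 0.18, and the points of the 8 separated genes lie above the bar of their chromosome by 0.83 (Bbc3) or more.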

How the data were processed

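RNA-seq of 3 *Myc*; sg*Trp53* and 3 *Myc*; sg*Kmt2c* mouse liver tumor cell lines was analysed, with genotype and line number taken from the labels. All libraries ran in the same 2 lanes of 1 flow cell. Per the study's methods and the submitters' processing notes, the authors trimmed reads with Trimmomatic, aligned with STAR to GRCm38 and used HTSeq for gene counts. The deposited values are RPKM (named FPKM in the methods), gene counts scaled by transcript length and library. The table has 21065 rows, 209 of them without values, and 6 sample columns of other samples that were not used. The authors' table of their own comparison (DESeq2 1.8.2) holds mean counts, fold changes and p-values and was not used. RPKM times length gave whole reads, within 0.01 of a read, for 100% of values above 0 (the depths given).

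The test was limma 3.58.1 in R 4.3.3 (trend, two-sided, Benjamini-Hochberg) on log2(RPKM + 1), restricted to genes at RPKM 1 or more in 3 or more libraries. Fold changes on this scale understate the change of low genes. Alternatives were other pseudocounts, filters and scalings, voom, no trend, a block and each line left out. Genes named are the 10 targets, fixed lists of partner, p53 and marker genes by rule, and the 5 most alike in pattern. From the partner list, genes under an unadjusted p-value of 0.05 and 7 set genes were to be named (1 is not reported here), and the other separated genes, the ligands, *Hrk* and the marker genes were named after their values were seen. The members and lists were chosen with earlier results of these data known. Strand use in counting is not given in the sources used here.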

Additional observations from a re-analysis of the deposited data

How the results depend on the processing

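Of the 17 alternatives, TPM, quantile and median-of-ratios scaling could lower the number of genes higher in every sg*Kmt2c* line, and with each of these it was 8 of the 10. The others leave the order of a gene's lines as it is, or drop or merge a line. The median log2 fold change of the 10 lay between 1.11 (without sg*Trp53* line 2) and 1.51 (pseudocount 0.1). The median of all genes was -0.09 as reported and from -0.12 (TPM scaling) to -0.01 (quantile scaling) otherwise. At an adjusted p-value under 0.05 (limma), 0 of the 10 were called with a pseudocount of 0.5 or 0.1, without the filter on low values, with TPM scaling, with limma voom on the recovered reads, with sg*Kmt2c* lines 2 and 3 as a single sample, and in each of the 6 fits that left out a line (0 to 0), where 8 of the 10 (7 without sg*Trp53* line 3) had an unadjusted p-value under 0.05. The count stayed at 1 with a filter on the mean, quantile or median-of-ratios scaling and no trend. Over all genes the count, 15 as reported, was 6 with a pseudocount of 0.1, 5 without the filter, 4 with voom, 0 with sg*Kmt2c* lines 2 and 3 as a single sample, and 0 to 8 with a line left out (8 without sg*Kmt2c* line 1), where the unadjusted p-value was under 0.05 for 563 to 1477. The log2 fold change of *Pmaip1* ran from -0.51 to 0.60 with a line left out, being negative without sg*Trp53* line 2 (-0.51) or sg*Kmt2c* line 1 (-0.31), and that of *Fas* from -0.26 (without sg*Kmt2c* line 2) to 0.94. The line numbers are shared by the genotypes. The deviations of same-numbered lines correlated at 0.192, 0.399 and 0.0316, and those of differently numbered lines at -0.284 to 0.152. Whether same-numbered lines share more than a number was not tested. With the replicate block, 0 genes and 0 of the 10 passed (1085 and 8 at an unadjusted p-value under 0.05), and *Eda2r* had an adjusted p-value of 0.0771 (limma). The cause of these changes was not tested. Depth limits *Fas*, with 12 to 73 reads per line, and *Eda2r* in the sg*Trp53* lines, with 9 to 59.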
